A study of Mus musculus with 8 samples.

Results

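The DNA methyltransferases *Dnmt1*, *Dnmt3a* and *Dnmt3b*, the maintenance factor *Uhrf1*, the oxidases *Tet1*, *Tet2* and *Tet3*, and the glycosylase gene *Tdg* were followed in fetal mouse ovaries. These 8 genes, chosen by symbol for their place in writing and removing DNA methylation, are 8 of the 25239 genes in the count tables. Ovaries were taken at E14.5 from female embryos on a C57BL/6 background. The control group was Bmpr1a fl/fl and the *Bmpr1a*-cKO group was Bmpr1a fl/fl; Oct4-Cre Cre/WT, so both carried floxed alleles of the BMP type I receptor gene *Bmpr1a*. All dams received 1 mg 4-hydroxy tamoxifen and 0.5 mg progesterone on each of 3 days (9.5 dpc, then 10.5 dpc and 11.5 dpc), and both genotypes were therefore exposed. Each group had 4 libraries, each from the pooled ovaries of 2 embryos, and 8 embryos per genotype came from 6 litters. The *Oct4* promoter drives the recombinase in germ cells, so the somatic cells of the ovary keep *Bmpr1a*, and whole ovaries rather than purified germ cells were sequenced. The comparison asks which transcripts depend on BMPR1A in the germ cells at the stage when they leave mitosis for meiosis.

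DNA methyltransferases place a methyl group on cytosine, mostly where it precedes guanine (a CpG). DNMT1, guided by UHRF1, copies the pattern to the new strand after replication, whereas DNMT3A and DNMT3B write new methylation. TET enzymes oxidise 5-methylcytosine, and TDG can cut out the further oxidised bases so that base excision repair restores plain cytosine. Fetal germ cells lose most of their DNA methylation, those of the ovary remain poorly methylated until after birth, and TET1 is known for its part in the activation of meiotic genes in female germ cells.

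Of the 8 genes, *Tet1* and *Dnmt3b* rose in *Bmpr1a*-cKO ovaries, by 1.84-fold and 1.55-fold. The counterparts *Tet2*, *Tet3* and *Dnmt3a* and the maintenance pair *Dnmt1* and *Uhrf1* did not pass the test, and *Tdg* was too sparsely counted to be tested. The promoter sequences of the 2 genes that rose are shown with that of *Tet2*, the TET gene with the richest CpG content, because CpGs are the substrate of these enzymes. The sequences are those of RefSeq on GRCm38.p6, span 300 bases around the annotated start, most of them upstream, and have each CpG in capitals. All 8 genes matched this promoter table, 3 of them with more than 1 start.
Tet1 (chr10:62887275-62887574, minus strand): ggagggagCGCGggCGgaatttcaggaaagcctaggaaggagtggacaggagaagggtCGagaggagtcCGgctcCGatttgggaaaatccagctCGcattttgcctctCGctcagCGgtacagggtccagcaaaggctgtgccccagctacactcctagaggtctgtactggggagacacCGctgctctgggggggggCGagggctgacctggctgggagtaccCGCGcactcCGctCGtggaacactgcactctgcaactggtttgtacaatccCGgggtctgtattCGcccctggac
Dnmt3b (chr2:153649199-153649498, plus strand): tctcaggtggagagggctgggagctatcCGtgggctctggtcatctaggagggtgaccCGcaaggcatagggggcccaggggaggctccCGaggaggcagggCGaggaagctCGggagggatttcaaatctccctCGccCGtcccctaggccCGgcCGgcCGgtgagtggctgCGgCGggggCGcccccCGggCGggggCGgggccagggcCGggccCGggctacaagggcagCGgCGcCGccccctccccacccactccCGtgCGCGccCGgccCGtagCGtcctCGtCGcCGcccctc
Tet2 (chr3:133544341-133544640, minus strand): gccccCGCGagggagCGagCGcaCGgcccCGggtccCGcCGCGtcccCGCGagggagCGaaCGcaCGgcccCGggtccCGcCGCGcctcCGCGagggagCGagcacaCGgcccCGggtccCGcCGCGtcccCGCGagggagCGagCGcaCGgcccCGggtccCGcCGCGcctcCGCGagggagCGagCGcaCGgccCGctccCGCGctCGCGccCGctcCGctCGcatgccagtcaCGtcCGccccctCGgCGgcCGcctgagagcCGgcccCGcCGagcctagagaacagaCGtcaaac

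The *Tet1* window held 17 CpGs, and 31.4% of all 32851 promoter windows in the table held as many or more. The *Dnmt3b* window held 30 CpGs, reached by 11.7% of windows. The *Tet2* window held 57, reached by 0.152%, and the median window held 7. Among the other genes, *Tet3* had 22 CpGs and *Tdg* 26, while *Dnmt1*, *Dnmt3a* and *Uhrf1* ranged from 2 to 47 over their several starts. Among the 5 genes with a single window, *Tet1* had the fewest CpGs and *Dnmt3b* the second most. The *Tet1* window (62887275 to 62887574) lies inside the annotated gene, whose upstream end is at 62908996. The *Tet3* window (83441629 to 83441928) likewise lies inside a gene with its upstream end at 83459084. Sequence at those upstream ends was not examined.

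Motifs of 2 kinds were searched on both strands of these windows: TTTCCCGC and TTTGGCGC, forms of the element of E2F factors, which drive S phase genes, and GGCGCC and GTCTAGAC, forms of the element of SMAD factors, which carry BMP signals. The *Tet1* window, which does not cover the upstream end of the annotated gene, held none of them. GGCGCC, which occurs in 11.9% of all windows, lay at 2 places in the *Dnmt3b* window and at 1 place in each of the 3 *Dnmt3a* windows, in 1 of the 3 *Dnmt1* windows and in the *Tdg* window, so it was also present at genes that were not called. TTTGGCGC lay in 1 of the 3 *Dnmt1* windows, against 0.514% of all windows. TTTCCCGC (1.07% of all windows) and GTCTAGAC (0.213%) were in no window of the 8 genes. These are matches of letters in a fixed window, and no binding was measured.

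Sequencing depth was 8562961 to 15365052 counts per library, which put the level of 3 counts at 0.189 to 0.357 CPM (the count scaled to a common library size). After TMM scaling, 14249 genes were tested, including 7 of the 8 genes. Log2 profiles correlated at 0.986 to 0.993 within a genotype and at 0.970 to 0.978 between genotypes. *Bmpr1a* itself stood at 218 ± 15.2 CPM in controls and 194 ± 10.4 CPM in the mutants (SD, n = 4; Log2FC −0.16, FDR = 0.0692), and the germ cell marker *Ddx4* at 142 ± 21.9 and 153 ± 32.3 CPM (FDR = 0.561). The whole-gene count of *Bmpr1a* therefore gave a decrease that did not pass the test, in a tissue whose somatic cells keep the gene. The authors report loss of BMPR1A staining in germ cells and lower *Bmpr1a* by qRT-PCR at every stage they measured. In such whole-ovary libraries, fewer cells of a type and less RNA per cell cannot be told apart.

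**Figure D1:**
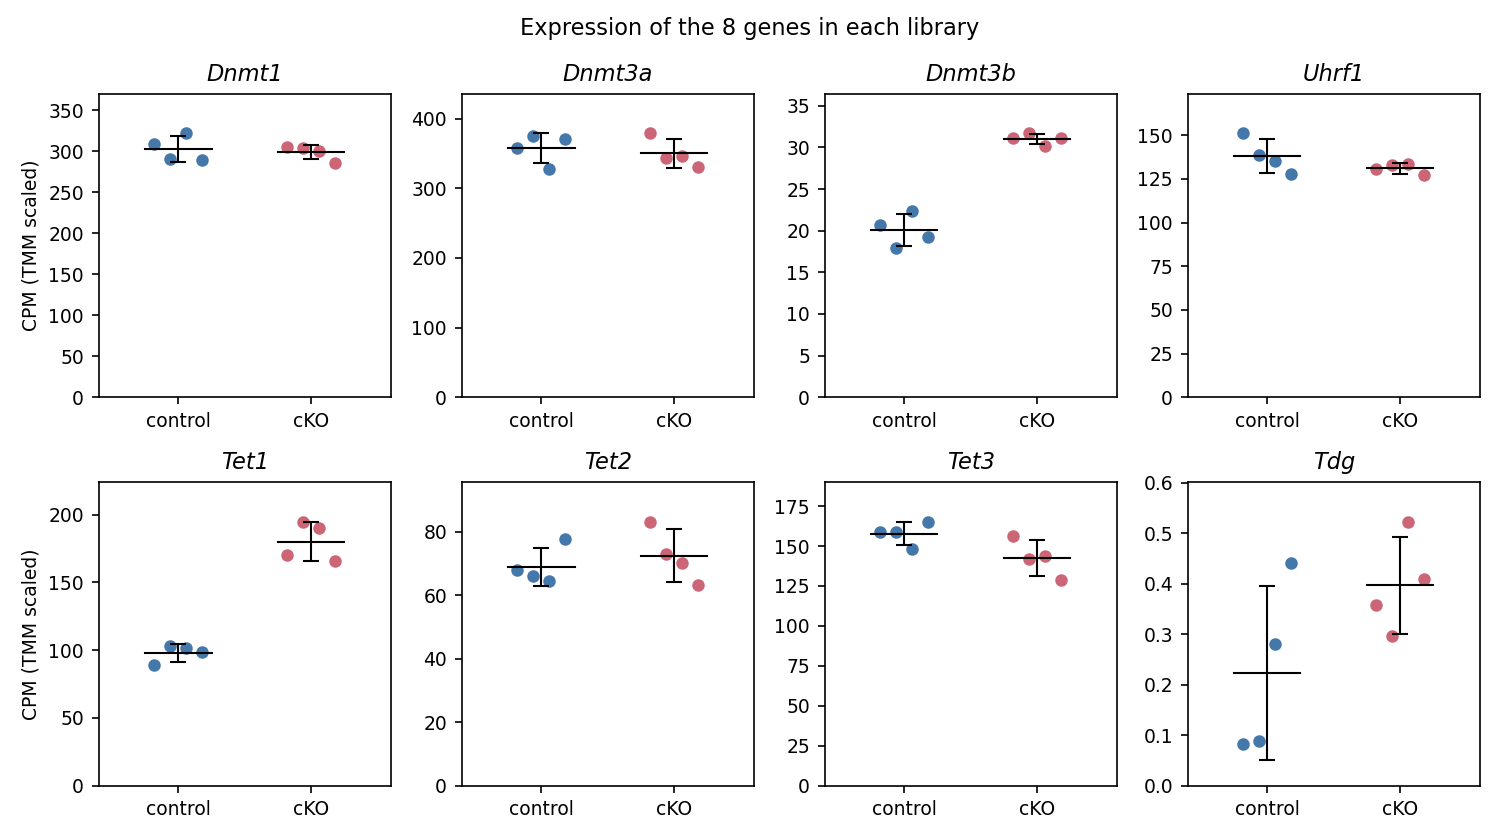
TMM-scaled CPM (vertical axes, each from 0) of the 8 genes in the 4 control (blue) and 4 *Bmpr1a*-cKO (red) libraries, with points for libraries, long bars for means and whiskers for the SD. The groups are separate for *Tet1* and *Dnmt3b* and overlap for the other 6 genes.

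*Tet1*, on chromosome 10 (mm10, 62804570 to 62908996, minus strand), had 88.9, 103, 102 and 98.5 CPM in the control libraries. In the *Bmpr1a*-cKO libraries it had 170, 195, 190 and 166 CPM. Every *Bmpr1a*-cKO library lay well above every control library, whose highest value was 103 CPM. The means were 98.0 ± 6.44 and 180 ± 14 CPM (SD, n = 4), which gave a Log2FC of 0.88 (SE 0.070, 95% interval 0.73 to 1.03, edgeR quasi-likelihood test, FDR = 5.20e-07). This rise of 1.84-fold (1.66 to 2.04) ranked 54 by p and 412 by Log2FC among the 14249 genes. Counts behind it were 1082 to 2623 reads per library, and no stretch of 100 bases of its longest coding transcript occurred in a transcript of another annotated gene.

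The other TET genes moved little. *Tet2* (chromosome 3, 133463679 to 133545139, minus strand) had 67.9, 66.1, 64.4 and 77.7 CPM in control libraries. Its *Bmpr1a*-cKO values were 83.2, 73.2, 70.2 and 63.2 CPM. The highest and the lowest of all 8 values were both *Bmpr1a*-cKO libraries, so the groups overlapped throughout. The Log2FC was 0.06 (SE 0.085, 95% interval −0.12 to 0.24, FDR = 0.627), and the interval did not reach the change seen for *Tet1*.

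*Tet3*, the TET enzyme best known for oxidising the paternal genome in the zygote (chromosome 6, 83362373 to 83459084, minus strand), had 159, 158, 148 and 165 CPM in control libraries. It had 156, 142, 144 and 129 CPM in *Bmpr1a*-cKO libraries. Of these, 3 lay below every control library and the first lay among them. The Log2FC of −0.15 (SE 0.065, 95% interval −0.29 to −0.01) had an unadjusted p of 0.0365 in the edgeR fit and an FDR of 0.0989, and did not pass. Its FDR fell below the threshold when *Bmpr1a*-cKO library 1 was left out (Log2FC −0.19, FDR = 0.0215) and with scaling to library size alone (Log2FC −0.20, FDR = 0.0332), and in none of the other 20 alternatives.

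*Dnmt3b*, on chromosome 2 (153649450 to 153687730, plus strand), was the least abundant methyltransferase. Its control libraries held 20.7, 17.9, 22.4 and 19.3 CPM, from 202 to 306 reads. The *Bmpr1a*-cKO libraries held 31.1, 31.7, 30.2 and 31.1 CPM, from 261 to 457 reads, and were nearly identical to each other and above all controls. The Log2FC was 0.63 (SE 0.080, 95% interval 0.46 to 0.80, FDR = 3.68e-05), a rise of 1.55-fold (1.38 to 1.75). Of its longest coding transcript, 5.71% of the 100-base windows also occurred in *Dnmt3c*, a rodent copy of the gene that methylates young retrotransposons and was not analysed here, and the antisense transcript *Dnmt3bos* overlaps 291 bases within its exons.

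*Dnmt3a*, the other de novo enzyme and the main one for imprints in the growing oocyte (chromosome 12, 3806007 to 3914443, plus strand), had 357, 375, 328 and 370 CPM in control libraries. It had 379, 344, 347 and 330 CPM in *Bmpr1a*-cKO libraries. The ranges overlapped almost completely. The Log2FC was −0.03 (SE 0.063, 95% interval −0.17 to 0.10, FDR = 0.744). *Dnmt3l*, the catalytically inactive partner of these enzymes, had at most 1 read in any library and was not tested, and the antisense *Dnmt3aos*, which overlaps 289 exonic bases of *Dnmt3a*, also had at most 1.

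For the maintenance pair, the spread between control libraries exceeded the difference between genotypes. *Dnmt1* (chromosome 9, 20907209 to 20959888, minus strand) had 309, 291, 322 and 290 CPM in controls and 305, 304, 300 and 286 CPM in *Bmpr1a*-cKO libraries, with a Log2FC of −0.02 (SE 0.057, 95% interval −0.14 to 0.10, FDR = 0.836). *Uhrf1* (chromosome 17, 56303321 to 56323486, plus strand) had 151, 139, 135 and 128 CPM in controls and 131, 133, 134 and 127 CPM in *Bmpr1a*-cKO libraries, with a Log2FC of −0.08 (SE 0.060, 95% interval −0.21 to 0.05, FDR = 0.365). For both genes the *Bmpr1a*-cKO values lay closer together than the control values. Windows shared with the annotated gene *Gm5648* made up 7.06% of the *Uhrf1* transcript and those of *Dnmt1* were not shared.

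*Tdg*, on chromosome 10 (82629828 to 82650799, plus strand), was at the edge of detection. Its reads numbered 1, 1, 3 and 7 in the control libraries and 3, 4, 5 and 6 in the *Bmpr1a*-cKO libraries. The sums of 12 and 18 reads have exact Poisson intervals of 6.20 to 21.0 and 10.7 to 28.4, for counting error only, and these overlap. No difference was detectable at this depth, and no fold change is given.

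Much of the *Tdg* transcript is not unique in the genome. Of the 100-base windows of its longest coding transcript, 38.1% also occurred in transcripts of 4 other annotated genes, among them the pseudogene *Tdg-ps*, and within the coding part the share was 66.9%. Whether reads that fit several places were counted is not given in the sources used here, and the part of this in the low counts was not tested. One coding window, bases 328 to 427 of transcript Tdg-208, occurred in *Tdg-ps*, *Gm9855* and *Gm5597* as well and is shown as an example, without capitals because the whole window is shared.
Tdg: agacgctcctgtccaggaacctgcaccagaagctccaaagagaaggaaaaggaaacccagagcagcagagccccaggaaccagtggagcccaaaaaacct

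In all, 2 of the 7 tested genes passed at FDR < 0.05, both higher, and both were DEGs in the sense used for these data (FDR < 0.05 and an absolute Log2FC above 0.5). Among all 14249 genes, 29.8% passed at FDR < 0.05, 17.3% higher and 12.5% lower, and 10.2% were DEGs, 6.11% higher and 4.06% lower (871 higher and 578 lower, or 397 higher and 1324 lower when libraries were scaled to germ cell markers). The share of the 7 genes that passed was thus close to that of all genes, and their median Log2FC of −0.02 lay next to the median of −0.0042 over all genes. What distinguished *Tet1* and *Dnmt3b* from the other 5 was the size and separation of their own changes. Libraries of the genotypes did not overlap for 27.9% of all genes (16.1% with *Bmpr1a*-cKO above and 11.7% below) and for these 2 of the 7.

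**Figure D2:**
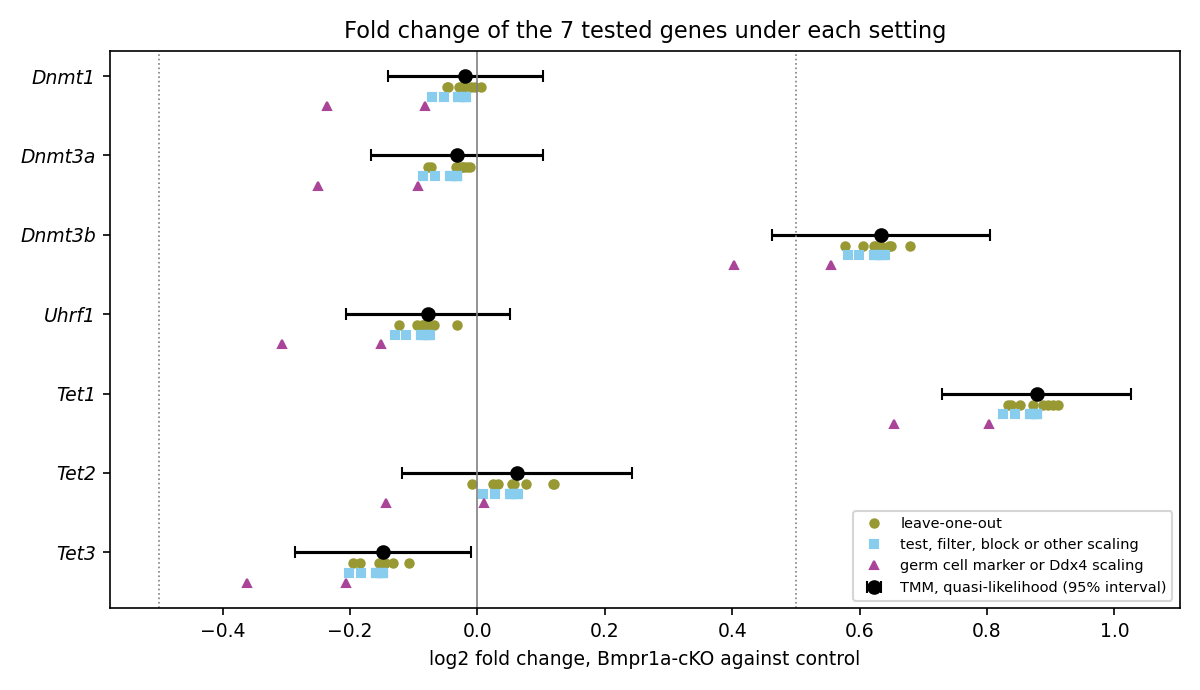
Log2 fold change (horizontal axis) of the 7 tested genes, with the TMM and quasi-likelihood value and its 95% interval in black and the 22 alternatives as coloured symbols; dotted lines mark 0.5 in either direction. *Tet1* lies above 0.5 throughout, and *Dnmt3b* falls to 0.40 only when libraries were scaled to the germ cell markers.

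The change of *Tet1* and *Dnmt3b* did not rest on a single library. With each library left out in turn, *Tet1* had a Log2FC of 0.83 to 0.91 and *Dnmt3b* of 0.58 to 0.68, and both were DEGs each time. Over all 22 alternatives *Tet1* was a DEG in 22 and *Dnmt3b* in 20. The other 2 were scalings to germ cell transcripts, which shifted every gene. The markers themselves responded to genotype, with 3 DEGs higher and 2 lower. The most abundant of them, *Dazl*, averaged 326 CPM in controls and 505 CPM in *Bmpr1a*-cKO libraries. Scaling to their sum is therefore not a measure of germ cell content alone. Scaled to the summed germ cell markers, the median of all genes moved to −0.24, *Tet1* had a Log2FC of 0.65 (0.89 above that median, FDR = 0.00769) and *Dnmt3b* of 0.40 (0.64 above it, FDR = 0.149). Scaled to *Ddx4* alone, *Tet1* had a Log2FC of 0.80 (FDR = 0.0123) and *Dnmt3b* of 0.56 (FDR = 0.206), with the median of all genes at −0.09.

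Ratios of 2 genes within a library do not depend on the scaling. Each library held 0.559 to 0.685 *Tet1* reads per *Tet3* read in controls and 1.09 to 1.38 in *Bmpr1a*-cKO ovaries. In every control library *Tet3* thus gave more reads than *Tet1*, and in every *Bmpr1a*-cKO library *Tet1* gave more than *Tet3*. The log2 ratio differed by 1.02 (exact permutation test, two-sided, p = 0.0286, 0.0429 adjusted over 6 ratios), and 0.0286 is the smallest p that 4 against 4 libraries can give.

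The ratio of *Tet1* to *Tet2* was 1.27 to 1.58 in controls and 2.04 to 2.71 in *Bmpr1a*-cKO libraries, a log2 difference of 0.81. The ratio of *Tet1* to *Dnmt1* was 0.288 to 0.355 and 0.557 to 0.642, a log2 difference of 0.89. The ratio of *Dnmt3b* to *Dnmt3a* was 0.0476 to 0.0682 and 0.0820 to 0.0943, a log2 difference of 0.67. None of these 3 ratios overlapped between genotypes, and each had p = 0.0286 (0.0429 adjusted) in the exact permutation test. Like the ratio of *Tet1* to *Tet3*, they set a gene already called against one that was not, and were chosen with earlier results known. They therefore restate the calls of *Tet1* and *Dnmt3b* and add no separate support. The adjusted value also depends on which ratios were put in the set. The adjusted values of these 3 and of the ratio of *Tet1* to *Tet3* rose to 0.0571 to 0.0857 when *Bmpr1a*-cKO library 2 or library 4 was left out, although the ratios kept their direction.

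Balance within the maintenance pair and between it and *Dnmt3a* showed no difference beyond the spread. *Uhrf1* gave 0.419 to 0.490 reads per *Dnmt1* read in controls and 0.428 to 0.444 in *Bmpr1a*-cKO libraries (log2 difference −0.06, exact permutation p = 0.371, 0.446 adjusted). *Dnmt3a* gave 1.02 to 1.29 reads per *Dnmt1* read in controls and 1.13 to 1.24 in *Bmpr1a*-cKO libraries (log2 difference −0.01, exact permutation p = 0.83). In both cases the *Bmpr1a*-cKO values lay within the range of the controls.

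**Figure D3:**
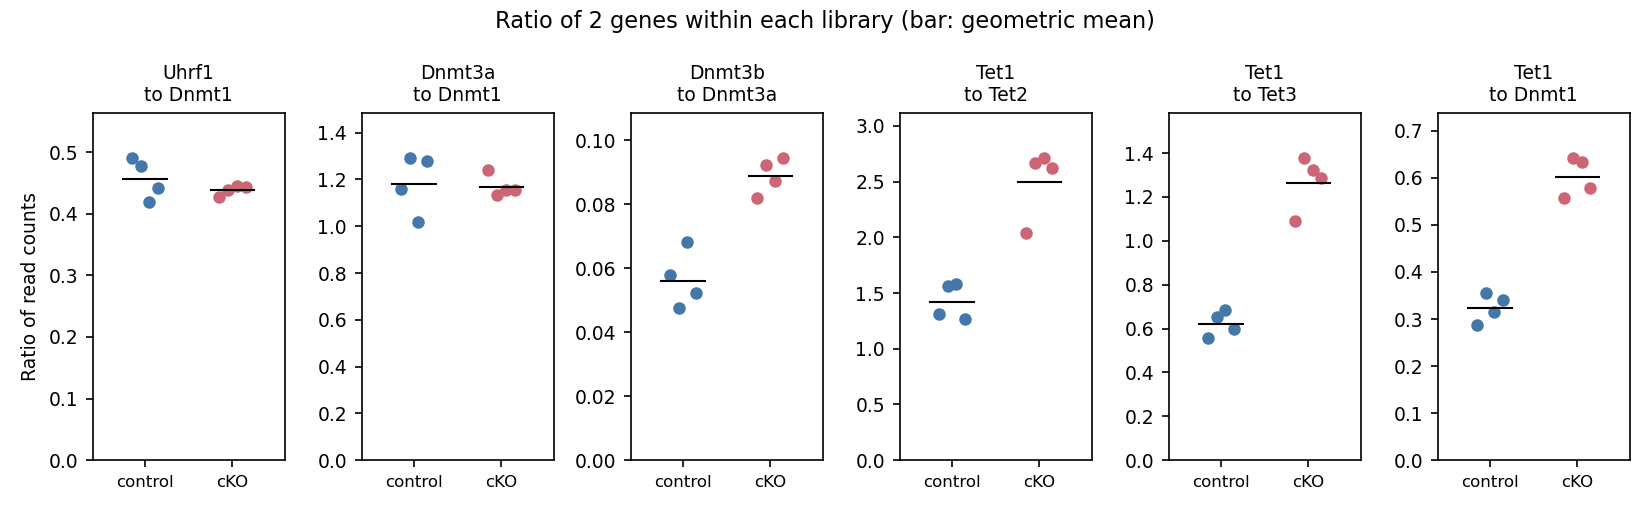
Ratio of the read counts of 2 genes (vertical axes, each from 0) in each control (blue) and *Bmpr1a*-cKO (red) library, with bars for the geometric means. The 2 ratios at the left overlap between genotypes, and the 4 at the right, which involve *Tet1* or *Dnmt3b*, do not.

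Levels of different genes were compared as CPM per kilobase of exon. With the union of all annotated exons as the length, control ovaries had *Dnmt1* highest (41.1 ± 2.11), then *Uhrf1* (32.5 ± 2.27), *Dnmt3a* (21.5 ± 1.28), *Tet3* (9.45 ± 0.426), *Tet1* (6.34 ± 0.417), *Tet2* (4.09 ± 0.353), *Dnmt3b* (3.93 ± 0.377) and *Tdg* (0.0415 ± 0.0320; SD, n = 4). Only *Tet2* and *Dnmt3b* overlapped among neighbours in this order. In *Bmpr1a*-cKO ovaries the first 3 genes stood in the same order, *Tet1* (11.7 ± 0.937) stood above *Tet3* (8.54 ± 0.671), and *Dnmt3b* (6.08 ± 0.121) stood above *Tet2* (4.29 ± 0.494), with no overlap between neighbours. These are descriptions of order, and no test was made of it.

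The order depended on the transcript length that was assumed. With the longest annotated transcript of each gene, *Tet1* and *Tet2* overlapped in control ovaries (6.82 ± 0.448 and 7.52 ± 0.648 CPM per kilobase; SD, n = 4), and *Tet3* and *Tet1* overlapped in *Bmpr1a*-cKO ovaries (13.1 ± 1.03 and 12.5 ± 1.01). *Dnmt1* was highest under both lengths. Whether *Tet1* exceeded *Tet3* per length in *Bmpr1a*-cKO ovaries was thus not settled by these counts.

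*Tet1* made up 31.9% ± 2.08 of the summed TET level per kilobase in controls and 47.6% ± 2.80 in *Bmpr1a*-cKO ovaries on union exons (SD, n = 4), or 23.7% ± 1.75 and 37.5% ± 2.63 on the longest transcripts. *Tet3* made up the largest share in control ovaries, 47.5% ± 1.35, and 34.9% ± 1.54 in *Bmpr1a*-cKO ovaries on union exons. The summed level of the 3 genes was 19.9 ± 0.770 and 24.5 ± 1.55 CPM per kilobase. For the methyltransferases, *Dnmt3b* made up 5.34% to 6.46% in controls and 8.66% to 9.42% in *Bmpr1a*-cKO libraries, and the summed level was 66.5 ± 1.26 and 67.6 ± 2.27 CPM per kilobase. The TET sums of the libraries did not overlap on union exons but did on the longest transcripts (27.7 to 30.5 in controls and 30.2 to 35.2 CPM per kilobase in *Bmpr1a*-cKO libraries). The methyltransferase sums overlapped under both lengths.

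**Figure D4:**
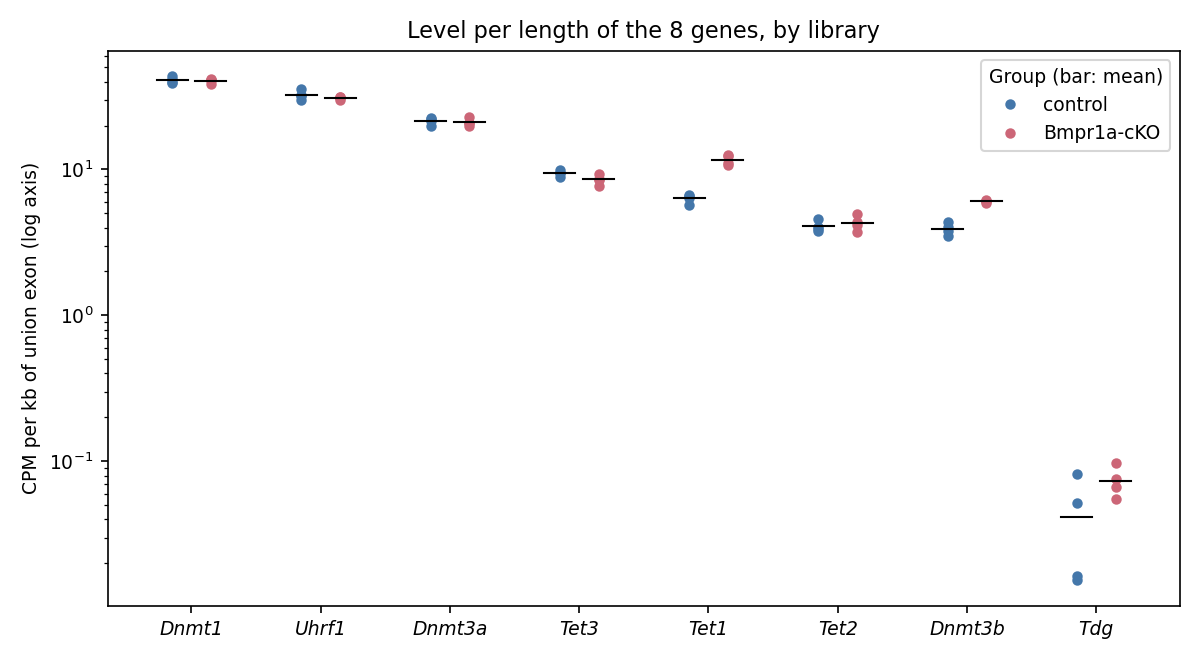
Level of the 8 genes as CPM per kilobase of union exon (vertical log axis) in each control (blue) and *Bmpr1a*-cKO (red) library, ordered by the control mean, with bars for means. *Tet1* passes from 6.34 to 11.7 and *Dnmt3b* from 3.93 to 6.08, while *Tdg* lies far below the others.

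The genes varied together in part from library to library within a genotype. Deviations of log2 CPM from the genotype mean correlated at 0.93 for *Tet2* and *Tet3*, at 0.89 for *Dnmt3a* and *Tet3*, at 0.76 for *Dnmt3a* and *Tet2*, and at 0.80 for *Dnmt1* and *Dnmt3b* (Pearson, 8 libraries, a description without a test). Other pairs ran in opposite directions, the most negative being *Dnmt3a* and *Dnmt3b* at −0.67, *Dnmt3b* and *Tet3* at −0.36, and *Dnmt1* and *Dnmt3a* at −0.34. *Tet1* and *Dnmt3b* correlated at 0.93 across the 8 libraries but at −0.18 in their deviations within a genotype. All of these values come from the same 8 libraries and the same scaling factors.

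Genes whose log2 CPM followed each member most closely over the 8 libraries were taken from 11672 genes with a mean of at least 5 CPM. For *Tet1* they were *Il17rd*, an inhibitor of FGF signalling (r = 0.994; 59.9 to 64.7 CPM in controls and 82.8 to 91.6 CPM in *Bmpr1a*-cKO libraries), *Fut10* (r = 0.993) and *Eef1e1*, a part of the tRNA synthetase complex (r = 0.992). For *Dnmt3b* they were *Mcm10*, a factor of replication initiation (r = 0.991; 24.5 to 29.1 and 41.6 to 44.6 CPM), *Eif3d*, a translation initiation factor (r = 0.990), and *Chaf1b*, a subunit of the histone chaperone CAF-1 (r = 0.990; 27.0 ± 3.94 and 46.3 ± 1.70 CPM, SD, n = 4). All 6 had passed the test, higher in *Bmpr1a*-cKO ovaries. Choice by correlation over all 8 libraries favours genes that separate by genotype as *Tet1* and *Dnmt3b* did, so these calls add no separate support. Their correlation with *Tet1* or *Dnmt3b* within a genotype was not examined.

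The genes most alike the other 5 mostly did not pass either. *Dnmt1* was followed by *Lrwd1*, *Trp53i13* and *Gpat4* (r = 0.936, 0.936 and 0.935) and *Uhrf1* by *Ctdnep1* and *Tbc1d13* (0.907 and 0.906). *Dnmt3a* was followed by *Prkd1*, *Kidins220* and *Gabrb1* (0.979, 0.976 and 0.963), *Tet2* by *Son*, *Arhgef12* and *Phyhd1* (0.955, 0.953 and 0.949), and *Tet3* by *Shbg* and *Tns1* (0.977 and 0.975). *Shbg* passed (Log2FC −0.58, FDR = 0.0497) and the others named here did not. These correlations over 8 libraries include the genotype difference and are descriptions.

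Partners and cofactors of the methyltransferases were higher more often than lower. Of 13 tested genes, 6 rose, 1 fell and 6 did not pass, with a median Log2FC of 0.19, against 17.3% higher and 12.5% lower among all genes. Scaled to germ cell markers, 0 of the 13 passed higher and 1 lower in the edgeR fit. Without *Bmpr1a*-cKO library 4, 2 fell. *Cdca7*, which brings the remodeller HELLS to chromatin for the maintenance of methylation, was the only DEG (53.6 to 59.0 CPM in controls and 84.0 to 89.6 CPM in *Bmpr1a*-cKO libraries, Log2FC 0.61, FDR = 2.91e-06), and *Hells* itself had 232 ± 24.5 and 202 ± 35.1 CPM (SD, n = 4; FDR = 0.186). The UHRF1 paralogue gene *Uhrf2* rose by a Log2FC of 0.32 (FDR = 0.000438), the replication clamp gene *Pcna* by 0.30 (FDR = 0.00272), and *Dmap1*, a binding partner of DNMT1, fell (Log2FC −0.38, FDR = 0.00450).

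Downstream of TET oxidation and TDG, 21 genes of base excision and of other proposed demethylation routes were tested. Of these, 5 rose, 3 fell and 13 did not pass (median Log2FC 0.02), against 17.3% higher and 12.5% lower among all genes. With 1 library left out, the number that rose was 3 in 6 of 8 cases, and scaled to germ cell markers it was 0 in the edgeR fit. Those that rose were *Apex1* (0.46) and *Apex2* (0.48), which encode AP endonucleases, *Ung* (0.48), a uracil glycosylase gene, *Neil2* (0.74), a glycosylase gene at only 1.12 to 2.98 CPM, and *Ogt* (0.20), whose O-GlcNAc transferase binds TET proteins. *Lig1* (Log2FC −0.27), *Xrcc1* (−0.26) and *Gadd45g* (−0.71), a stress response gene also studied in demethylation, fell. Of these 8, the DEGs were *Gadd45g* (10.3 to 13.3 CPM in controls and 5.38 to 8.05 CPM in *Bmpr1a*-cKO libraries, FDR = 0.00154) and *Neil2* (FDR = 0.0424), the latter with overlapping libraries.

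Of 7 methyl-CpG reader genes only *Zbtb38* passed, with a Log2FC of 0.28 (FDR = 0.00928), and none did when scaled to germ cell markers. The other 6, among them *Mbd2* (Log2FC −0.0021), did not, and none was a DEG. The median of the list was −0.0021. The readers therefore gave 1 of 7 where 29.8% of all genes passed.

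Regulators of methylation in germ cells and stem cells held the largest changes among these lists. Of 12 tested genes, 6 rose, 1 fell and 5 did not pass (median Log2FC 0.19), against 17.3% higher and 12.5% lower among all genes. When scaled to germ cell markers or to *Ddx4*, 4 of the 12 passed higher. The number that fell was 2 without control library 1, control library 4 or *Bmpr1a*-cKO library 2. *Prdm14*, which represses *Dnmt3b* in primordial germ cells and stem cells, had 2.21 to 4.96 CPM in controls and 14.3 to 21.2 CPM in *Bmpr1a*-cKO libraries (Log2FC 2.39, FDR = 8.02e-07). *Nanog*, a pluripotency factor whose protein binds TET1, had 3.78 to 7.67 and 13.0 to 18.9 CPM (Log2FC 1.59, FDR = 9.79e-06). All 4 *Bmpr1a*-cKO libraries lay above all controls for both genes.

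*Dppa3*, whose protein protects methylated DNA from TET3 in the zygote and displaces UHRF1, had 17.2 to 35.5 CPM in controls and 50.7 to 99.4 CPM in *Bmpr1a*-cKO libraries (Log2FC 1.58, FDR = 5.99e-05). *Esrrb*, a naive pluripotency factor, had at most 18.1 CPM in controls and at least 22.9 CPM in *Bmpr1a*-cKO libraries (Log2FC 1.31, FDR = 6.72e-05). *Setdb1*, a histone H3 methyltransferase gene of retrotransposon silencing, was the gene that fell in the edgeR quasi-likelihood fit with TMM scaling (Log2FC −0.32, FDR = 0.000728). *Tfap2c*, of the same list, was also lower but did not pass in that fit (Log2FC −0.51, FDR = 0.0527). *Prdm14* and *Dnmt3b* were both higher in the *Bmpr1a*-cKO libraries of whole ovaries, and the part of *Prdm14* in the change of *Dnmt3b* was not tested.

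Germline genes known to be held silent by promoter methylation in other cells did not rise as a group. Of 10 tested, 1 rose, 4 fell and 5 did not pass, with a median Log2FC of −0.30, against 17.3% higher and 12.5% lower among all genes. Without *Bmpr1a*-cKO library 1, 2 of the 10 rose. Scaled to germ cell markers, 6 passed lower and none higher. *Asz1*, *Dazl*, *Ddx4* and *Mael* are also among those markers, so this scaling divided them partly by themselves and cannot decide their direction. *Dazl*, an RNA-binding protein gene of germ cells, rose (282 to 381 CPM in controls and 382 to 614 CPM in *Bmpr1a*-cKO libraries, Log2FC 0.63, FDR = 0.00101). *Sycp3*, of the meiotic chromosome axis, fell (67.7 to 80.9 and 13.0 to 45.0 CPM, Log2FC −1.36, FDR = 0.000322), and so did *Taf7l* (Log2FC −1.01, FDR = 0.00142), *Mael*, of retrotransposon control (Log2FC −0.80, FDR = 0.000507), and *Sycp1*, of the synaptonemal complex (Log2FC −0.47, FDR = 0.0127). In the *Bmpr1a*-cKO group *Tet1* was higher and *Sycp3* lower, and a link between the 2 changes was not tested.

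**Figure D5:**
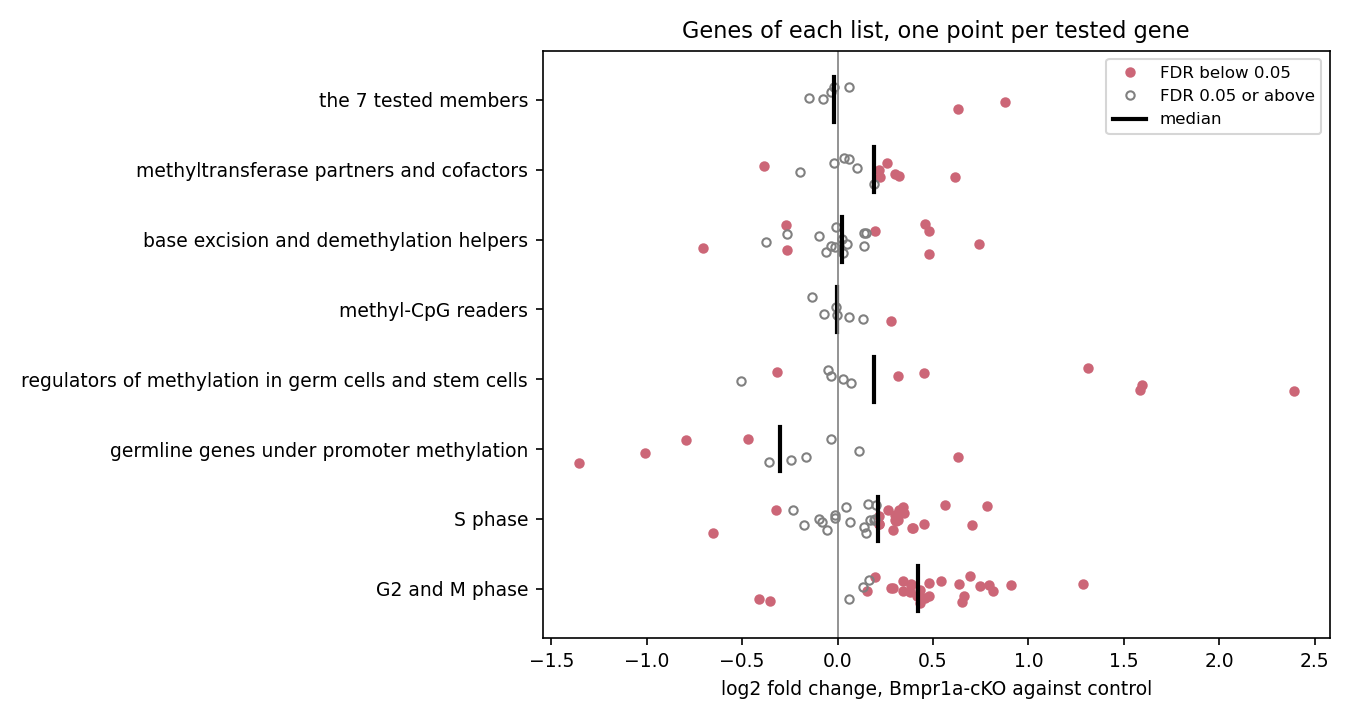
Log2 fold change (horizontal axis) of each tested gene in the 8 named lists (rows; vertical scatter within a row has no meaning), filled where FDR < 0.05, with black bars for the list medians. The regulators reach 2.39 (*Prdm14*), the germline genes spread from −1.36 to 0.63, and the G2 and M phase genes lie mostly above 0 with a median of 0.42.

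Cell cycle genes moved in the same libraries. Of 30 genes active in G2 and M phase, 25 rose and 2 fell (*Bub1* and *Kif23*), with a median Log2FC of 0.42, and 10 were DEGs, led by *Ccnb1*, the cyclin of mitotic entry (78.5 to 94.9 CPM in controls and 202 to 222 CPM in *Bmpr1a*-cKO libraries, Log2FC 1.29). Of 36 genes of S phase, 18 rose and 2 fell (*Ccne2* and *Gins3*), with a median of 0.21, against 17.3% higher and 12.5% lower among all genes. Without control library 4 the number of S phase genes that rose was 10, and the number that fell was 1 without control library 1 or 3 or *Bmpr1a*-cKO library 1 or 2. Scaled to germ cell markers, 5 G2 and M genes and 1 S phase gene passed higher. *Dnmt1* and *Uhrf1*, whose transcription is known to accompany S phase, had Log2FC values of −0.02 and −0.08. The summed level of each of these lists was higher in every *Bmpr1a*-cKO library (S phase, 2486 to 2901 CPM in controls and 2982 to 3250 CPM in *Bmpr1a*-cKO libraries), and their part in the changes of *Tet1* and *Dnmt3b* was not tested.

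Markers of the cell types of the ovary were set beside these values. Among all genes tested, 17.3% passed higher and 12.5% lower. Of 12 germ cell markers 3 rose and 2 fell, with summed levels of 732 to 964 CPM in controls and 735 to 1156 CPM in *Bmpr1a*-cKO libraries, which overlapped; 5 rose without *Bmpr1a*-cKO library 1 and 4 fell without *Bmpr1a*-cKO library 4. Of 12 pregranulosa markers 9 fell (summed, 2178 to 2581 and 1917 to 2240 CPM, overlapping), and of 6 tested macrophage markers 4 rose, with summed levels of 29.5 to 37.0 CPM in controls and a higher 41.7 to 52.2 CPM in *Bmpr1a*-cKO libraries. The number of macrophage markers that rose was 1 without *Bmpr1a*-cKO library 4, 2 without *Bmpr1a*-cKO library 3 or control library 4, and 0 when scaled to germ cell markers. Of 7 Sertoli markers 2 fell (23.9 to 25.7 and 19.4 to 20.7 CPM), and of 6 mesonephros markers 2 fell (81.3 to 90.7 and 61.2 to 72.9 CPM). Only 1 Sertoli marker fell without control library 1 or *Bmpr1a*-cKO library 2, and only 1 mesonephros marker without control library 3 or *Bmpr1a*-cKO library 2 or 4. No marker of stroma (8 tested), endothelium (8) or erythroid cells (4) passed the edgeR test, and the globin genes *Hba-a1*, *Hba-a2*, *Hbb-bs* and *Hbb-bt* were at 0 in all libraries. The part of these cell types in the changes of *Tet1* and *Dnmt3b* was not tested.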

How the data were processed

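RNA-Seq of 8 libraries (4 control and 4 *Bmpr1a*-cKO pools) was used. The libraries were stranded and paired-end, from 500 ng of total RNA. The authors trimmed reads with Trimmomatic 0.39, mapped them with STAR 2.5.2 to mm10 and deposited whole-number counts per gene symbol, without normalization. The annotation and strand setting of the counting are not given in the sources used here. A deposited table with 8 columns of normalized values was not used.

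From the counts, genes were kept by filterByExpr, scaled by TMM and compared between genotypes by edgeR 4.0.16 in R 4.3.3 (quasi-likelihood F test) (two-sided, Benjamini-Hochberg FDR over all 14249 genes). DEGs had FDR < 0.05 and an absolute Log2FC above 0.5. SE was derived from the F statistic, and log2 CPM carried a prior count of 2. Ratios were compared by exact permutation (70 arrangements). Alternatives used limma 3.58.1 and DESeq2 1.42.0. The procedure was tested on simulated data. Positions and lengths are those of GENCODE vM21.

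The genes, lists and tests were chosen with earlier results of these data known. Named genes were the 8 genes, *Bmpr1a* and *Ddx4*, DEGs of each pathway list (at most 4) and the 3 genes most alike each member, some of which are not reported here. Other list genes were named after their values were seen. Litter is not given per library, so p-values measure the spread between pools. Poisson intervals and the level of 3 counts cover counting error only.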

Additional observations from a re-analysis of the deposited data

Results flagged for a closer look

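Among 28 sets of 4 libraries, 1 held a value far from the others. The ratio of *Tet1* to *Tet2* reads in *Bmpr1a*-cKO library 1 was 2.04, against 2.62 to 2.71 in the other 3 *Bmpr1a*-cKO libraries, a gap of 0.866 of the whole range, above Dixon's critical value. Chance flags about 1 in 20 such sets. That library still lay above the highest control ratio of 1.58, and without it the log2 difference between genotypes was 0.91.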

How the results depend on the processing

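*Tet1* and *Dnmt3b* kept their direction in 22 of 22 alternatives (Log2FC 0.65 to 0.91 and 0.40 to 0.68). *Tet1* passed in all 22 and *Dnmt3b* in 20. Scaled to germ cell markers, 397 DEGs were higher and 1324 lower, and 1 of the genes passed and was a DEG, *Tet1*. Scaled to *Ddx4*, the number of DEGs was 725 (380 higher, 345 lower) and again 1 of the genes passed and was a DEG. With no threshold on the fold change, 4242 genes were called. Library size scaling gave 743 DEGs higher and 722 lower. *Tet2* turned to −0.14 with germ cell marker scaling and to −0.0088 without *Bmpr1a*-cKO library 1, and *Dnmt1* to 0.0052 without control library 3 (ranges with single libraries left out, −0.0088 to 0.12 and −0.048 to 0.0052); neither passed under any setting. With single libraries left out, DEGs numbered 1288 to 1627, and the log2 ratio differences were 0.59 to 0.76 (*Dnmt3b* to *Dnmt3a*), 0.75 to 0.91 (*Tet1* to *Tet2*), 0.97 to 1.10 (*Tet1* to *Tet3*) and 0.84 to 0.94 (*Tet1* to *Dnmt1*). The ratio of *Dnmt3a* to *Dnmt1* ran from −0.085 to 0.030, turning to 0.030 without control library 2, 0.025 without control library 4 and 0.0027 without *Bmpr1a*-cKO library 2. The causes were not tested.

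The replicate numbers in the labels were not tied to litters. Same-numbered libraries had deviations that correlated at 0.20, 0.16, 0.11 and −0.09, other numbers at −0.20 to 0.18, so the numbers were not taken as pairs. With the replicate number as a block, 4771 genes passed FDR < 0.05 in place of 4242, DEGs were 875 higher and 582 lower, and the calls of the 7 tested genes did not change. At 1 to 7 reads per library, *Tdg* was too sparsely counted for a test, and why its counts were low was not tested.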
